A study of Mus musculus with 23 samples.

Results

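The effect of the foster dam on the liver transcriptome was read from all 23 pups of a cross-fostering study, as the mean of the libraries from pups nursed by a MetS dam minus the mean of those from pups nursed by a Ct dam. MetS stands in the study's title for maternal metabolic syndrome and Ct for control. All pups were C57Bl/6J mice, and each library is the polyadenylated RNA of 1 whole liver. The 11 pups nursed by a MetS dam were 6 born to a Ct dam, called Ct-MetS, and 5 born to a MetS dam, called MetS-MetS. The 12 pups nursed by a Ct dam were 6 born to a Ct dam, called Ct-Ct, and 6 born to a MetS dam, called MetS-Ct. Livers were taken on postnatal day 21, except that of the pup MetS-Ct_97, on day 22. Per the labels, dams were put on a diet with 10% or 45% of fat when 3 weeks old and kept on it for 7 weeks in 1 cohort and 17 weeks in the other, sires ate the control diet, and litters were set to 5 pups and moved to a foster dam on the day of birth. The labels name the 45% diet high fat and do not say in words that it is what MetS stands for, nor do they give the litter or the dam's cohort of a pup. Pups of 1 litter could therefore count as separate samples, and the p-values below measure only the spread between these samples.

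The suckling mouse lives on its dam's milk, which is rich in fat, and around weaning its liver takes on adult functions. Among these are the uptake and conjugation of drugs and steroids, the handling of dietary sugar and the secretion of most plasma proteins. A pup nursed by a foster dam shares her milk and nest but not her uterus, so that a cross-foster design separates the time around nursing from the time before birth. Lipid, red-cell and resident macrophage (Kupffer cell) genes were counted but set aside, and the description below is of the other functions.

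The livers carried their defining hepatocyte transcripts in every library. Albumin (Alb) lay between 95333 and 123732 CPM (the count scaled to a common effective library size) with a MetS foster dam and between 84728 and 117934 CPM with a Ct foster dam. Library totals ranged from 16876460 to 34527932 counts, and the MetS-MetS libraries were the shallowest, with a median of 22564741. The library of MetS-MetS_110 stood apart. Its summed level of the skeletal muscle genes Ckm, Acta1, Mb, Tnnt3 and Mylpf was 700.4 CPM, against at most 5.19 CPM in any other library, and it had the smallest total. Counts of called list members are therefore given with and without it where they differ. All 23 livers came from females, with at least 15615 counts of Xist and at most 2 counts over 4 Y-linked genes.

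The foster dam effect was called for 611 of the 14466 genes with a mean count of at least 10, which is 4.22% (edgeR's quasi-likelihood test with 4 group means, Benjamini-Hochberg adjusted p under 0.05). Of these, 329 were higher with a MetS foster dam (2.27% of genes tested) and 282 were lower (1.95%). Without MetS-MetS_110 there were 441 calls. The lowest count with 1 library left out was 349, without MetS-MetS_154, and the highest was 923, without Ct-MetS_50. The count also moved by over 1.5 times without Ct-Ct_129 (359 calls), Ct-MetS_145 (391), Ct-Ct_4 (394), Ct-MetS_169 (402) and Ct-MetS_24 (407).

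The difference was then read in each prenatal state, between pairs of groups that share no library. In pups born to a Ct dam, 138 genes (0.954%) were called between Ct-MetS and Ct-Ct, 85 higher (0.588%) and 53 lower (0.366%). In pups born to a MetS dam, 60 genes (0.415%) were called between MetS-MetS and MetS-Ct, 37 higher (0.256%) and 23 lower (0.159%). With 1 library left out, the count in pups of Ct birth dams ran from 12 without Ct-MetS_169 to 246 without Ct-Ct_33. That in pups of MetS birth dams ran from 5 without MetS-Ct_70 to 151 without MetS-MetS_39, and was 10 without MetS-MetS_110. A test of the difference between both prenatal states called 0 genes with edgeR and 0 with limma-voom, 4 with DESeq2, and gave an unadjusted p under 0.05 for 787 genes (5.44%). A gene was taken as shared by both prenatal states where its foster dam effect was called, both pairs moved the same way with an unadjusted p under 0.05 each, and the test of their difference had an unadjusted p of at least 0.05. This held for 391 genes (2.70% of genes tested), of which 219 were higher (1.51%) and 172 lower (1.19%) with a MetS foster dam. It held for 309 genes without MetS-MetS_110, for 258 without Ct-Ct_129 and for 244 without MetS-MetS_154. Of the 391, 38 were on the lipid lists, 12 on the red-cell list and 9 on the Kupffer cell list. The other 332, 167 higher and 165 lower, had a median absolute log2 fold change of 0.46, against 0.12 over all genes tested, and the call itself selects for size. Of these 332, 52 were on at least 1 of 42 function lists. A called gene given below with a log2 fold change and its SE kept its call in each of the 23 fits that left out 1 library, unless said otherwise.

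Among the 611 called genes 610 moved the same way in both pairs, which the call on their mean fixes in part. Over all 14466 genes tested, 63.3% moved the same way in both pairs, and the log2 fold changes of both pairs correlated across genes with Pearson's r of 0.25 and Spearman's rho of 0.39. Genes are not independent replicates, and these are descriptions.

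**Figure D1:**
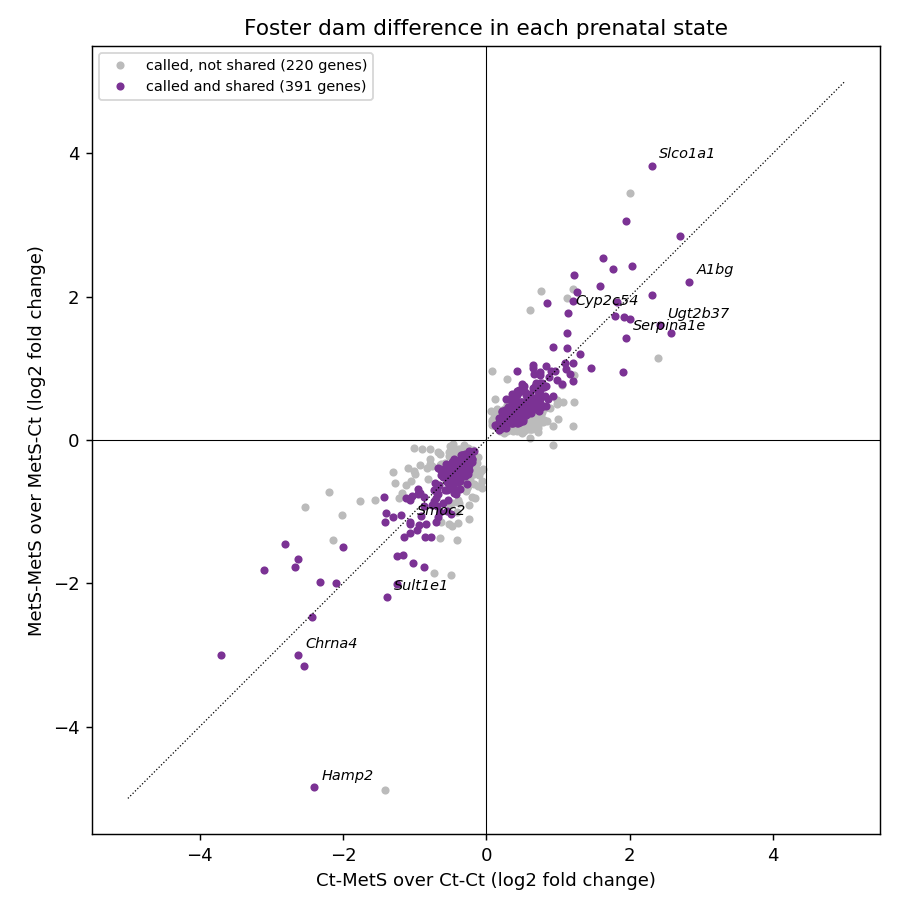
Log2 fold change of MetS-MetS over MetS-Ct (vertical axis) against that of Ct-MetS over Ct-Ct (horizontal axis) for the 611 called genes, each a point, purple where shared by both prenatal states and grey elsewhere, with a dotted line where both are equal. All but 1 of the 611 points lie in the 2 quadrants where both pairs moved the same way, and Slco1a1 and Hamp2 are the farthest of the purple points at the upper and lower end.

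The 6 shared genes with a mean count of at least 50 that moved most, 4 higher and 2 lower and off the lists set aside, are introduced by their promoters, so that genes that moved most can be set side by side upstream of their starts. Slco1a1 encodes an organic anion uptake transporter of the hepatocyte membrane, A1bg a plasma glycoprotein, Ugt2b37 a glucuronosyltransferase, and Serpina1e one of the mouse copies of alpha-1-antitrypsin. Hamp2 encodes a relative of the iron hormone hepcidin, and Chrna4 a subunit of the neuronal nicotinic acetylcholine receptor. Each line gives 250 bases before to 50 bases after the start, 5′ to 3′ on the gene's strand, from RefSeq on GRCm38.p6. Capitals mark matches to TTCNNNGAA, the core element of STAT factors, or GTTAAT, the core of the HNF1 element, searched on both strands.
Slco1a1 promoter (chr6:141946913-141947212, minus strand): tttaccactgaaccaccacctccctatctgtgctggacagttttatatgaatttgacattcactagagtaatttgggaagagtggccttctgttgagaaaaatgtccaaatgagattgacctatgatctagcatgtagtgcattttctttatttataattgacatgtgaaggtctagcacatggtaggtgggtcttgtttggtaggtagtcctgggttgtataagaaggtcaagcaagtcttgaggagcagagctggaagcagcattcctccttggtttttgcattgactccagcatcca
A1bg promoter (chr15:60921221-60921520, minus strand): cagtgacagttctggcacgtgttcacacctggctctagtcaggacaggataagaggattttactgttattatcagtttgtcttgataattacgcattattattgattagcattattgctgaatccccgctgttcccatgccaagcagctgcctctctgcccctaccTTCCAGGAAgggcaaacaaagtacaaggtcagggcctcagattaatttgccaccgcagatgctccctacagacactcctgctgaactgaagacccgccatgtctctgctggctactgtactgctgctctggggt
Ugt2b37 promoter (chr5:87254739-87255038, minus strand): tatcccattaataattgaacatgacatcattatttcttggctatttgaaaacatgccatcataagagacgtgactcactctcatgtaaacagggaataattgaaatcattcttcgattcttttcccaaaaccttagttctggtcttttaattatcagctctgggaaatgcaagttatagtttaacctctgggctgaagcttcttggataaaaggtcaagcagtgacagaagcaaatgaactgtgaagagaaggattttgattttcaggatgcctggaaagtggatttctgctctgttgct
Serpina1e promoter (chr12:103956848-103957147, minus strand): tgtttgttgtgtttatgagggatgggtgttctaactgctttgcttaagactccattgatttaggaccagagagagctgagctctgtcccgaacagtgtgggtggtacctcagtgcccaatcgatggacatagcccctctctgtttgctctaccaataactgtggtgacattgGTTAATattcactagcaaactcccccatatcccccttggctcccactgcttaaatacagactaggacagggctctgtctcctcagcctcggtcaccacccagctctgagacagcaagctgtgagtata
Hamp2 promoter (chr7:30924132-30924431, minus strand): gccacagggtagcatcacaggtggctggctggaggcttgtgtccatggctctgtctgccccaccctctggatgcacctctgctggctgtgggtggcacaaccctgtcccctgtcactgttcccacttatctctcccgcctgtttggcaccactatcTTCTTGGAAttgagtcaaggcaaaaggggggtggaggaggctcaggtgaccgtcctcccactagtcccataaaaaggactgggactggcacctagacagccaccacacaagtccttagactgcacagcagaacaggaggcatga
Chrna4 promoter (chr2:181039128-181039427, minus strand): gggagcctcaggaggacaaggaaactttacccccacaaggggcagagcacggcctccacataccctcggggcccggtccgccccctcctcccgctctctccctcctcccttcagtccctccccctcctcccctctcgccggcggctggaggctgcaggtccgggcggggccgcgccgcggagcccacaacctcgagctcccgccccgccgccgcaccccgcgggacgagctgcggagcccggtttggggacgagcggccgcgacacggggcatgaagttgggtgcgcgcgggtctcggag
A1bg and Hamp2 each hold 1 match to TTCNNNGAA, Serpina1e holds 1 match to GTTAAT, and the other 3 windows hold neither run of letters. TTCNNNGAA occurs in 8.47% of the 27025 promoters of this length and GTTAAT in 7.20%. Of the 332 shared genes 243 had a promoter in the table, and each motif was found in 16 of them (6.58%), against 6.94% for TTCNNNGAA and 4.62% for GTTAAT among the 10921 promoters of genes tested. A match is a run of letters and not a bound site.

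Several secreted plasma proteins and protease inhibitors were higher with a MetS foster dam. Serpins, the family of protease inhibitors that includes alpha-1-antitrypsin, had 4 of 31 tested members called, all higher and all shared (12.9% of the list, against 4.22% of all genes tested), with a median log2 fold change of 0.19 over the list against −0.01 over all genes tested. The count was 3 without MetS-MetS_110. Serpina1e had 220 to 3351 CPM with a MetS foster dam (median 958) and 119 to 655 CPM with a Ct foster dam (median 323). The level was above every pup of a Ct foster dam in 8 of 11 pups, while Ct-MetS_50 (220 CPM), Ct-MetS_169 (369 CPM) and MetS-MetS_39 (631 CPM) overlapped them. Its log2 fold change was 1.69 ± 0.35 (SE, edgeR adjusted p = 0.0116), at 1.94 in pups of Ct birth dams and 1.43 in pups of MetS birth dams.

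The near-identical copies did not share the size of this difference. Serpina1a, Serpina1b and Serpina1c had log2 fold changes of 0.17, −0.01 and 0.18, and none was called (edgeR adjusted p = 0.246, 0.929 and 0.347). The sources used here do not say how reads that match several copies were counted, so the values of the Serpina1, Serpina3, Cyp2c, Ugt2b, hepcidin and Mup copies are uncertain. Serpina3g, an intracellular cathepsin inhibitor, had 16.6 to 26.1 CPM (median 20.1) with a MetS foster dam and 8.86 to 17.6 CPM (median 12.2) with a Ct foster dam, and only Ct-MetS_63 fell within the range of the Ct foster dam pups. It was called in both pairs on its own, as were 11 further genes. Serpina3f rose by 0.51 ± 0.10 on the log2 scale (SE, edgeR adjusted p = 0.00976), while Serpina3n and Serpina3m had log2 fold changes of 0.19 and 0.05 and were not called (adjusted p = 0.260 and 0.880). The fourth called serpin, Serpinb8, had an edgeR adjusted p of 0.0454 and was called in 6 of the 23 fits that left out 1 library, with an adjusted p of up to 0.0840.

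A1bg, also secreted, had 15 to 190 CPM (median 41.7) with a MetS foster dam and 0.998 to 25.1 CPM (median 8.33) with a Ct foster dam, so that 8 of 11 pups lay above every pup of a Ct foster dam. The log2 fold change was 2.52 ± 0.49 (SE, edgeR adjusted p = 0.00831). A1bg was chosen for naming after its values were seen.

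Complement and coagulation genes had 4 members called higher and 1 lower of 56 tested (8.93% of the list, against 4.22% of all genes tested, median log2 fold change 0.05). With 1 library left out there were 3 to 7 calls, with 4 without MetS-MetS_110 and a move of over 1.5 times in 8 of 23 fits. C8a, the alpha chain of complement component 8 in the membrane attack complex, had 328 to 573 CPM (median 486) with a MetS foster dam and 227 to 411 CPM (median 326) with a Ct foster dam. It rose by 0.60 ± 0.12 on the log2 scale (SE, edgeR adjusted p = 0.00784), and 8 of 11 pups lay above the whole range of the Ct foster dam pups. Cfhr3, a relative of the complement regulator factor H, fell by 0.48 ± 0.11 (SE, edgeR adjusted p = 0.0194). Its levels were 28.1 to 56.2 CPM with a MetS foster dam and 38.7 to 70.5 CPM with a Ct foster dam, which overlap. The remaining 3, Cfp (properdin), A2m (alpha-2-macroglobulin) and Fcna (ficolin A), were higher and did not meet the rule for shared genes. Cfp is also on the list of Kupffer cell markers.

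Of 54 acute phase and other secreted liver proteins 3 were called (5.56%, near the background), all higher and all shared. The count was 1 without MetS-MetS_110, ran from 1 to 5 with 1 library left out and moved by over 1.5 times in 9 of 23 fits. Inhbc, the inhibin beta C chain made by hepatocytes, had a log2 fold change of 0.37 ± 0.09 (SE, edgeR adjusted p = 0.0238), and its call was lost without MetS-MetS_154 (adjusted p = 0.0522). Pzp, a pregnancy zone protein and broad protease trap, had 3752 to 7784 CPM with a MetS foster dam and 4212 to 5385 CPM with a Ct foster dam. Ct-MetS_50 and MetS-MetS_39 lay below that range, and the other 9 lay above it. The call of Pzp (edgeR adjusted p = 0.0304) was kept in 13 of 23 fits with 1 library left out, with an adjusted p of up to 0.0623. Lcn2, a lipocalin that binds bacterial siderophores, was called with an edgeR adjusted p of 0.0464 and kept its call in 6 of those fits, with an adjusted p of up to 0.0837.

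**Figure D2:**
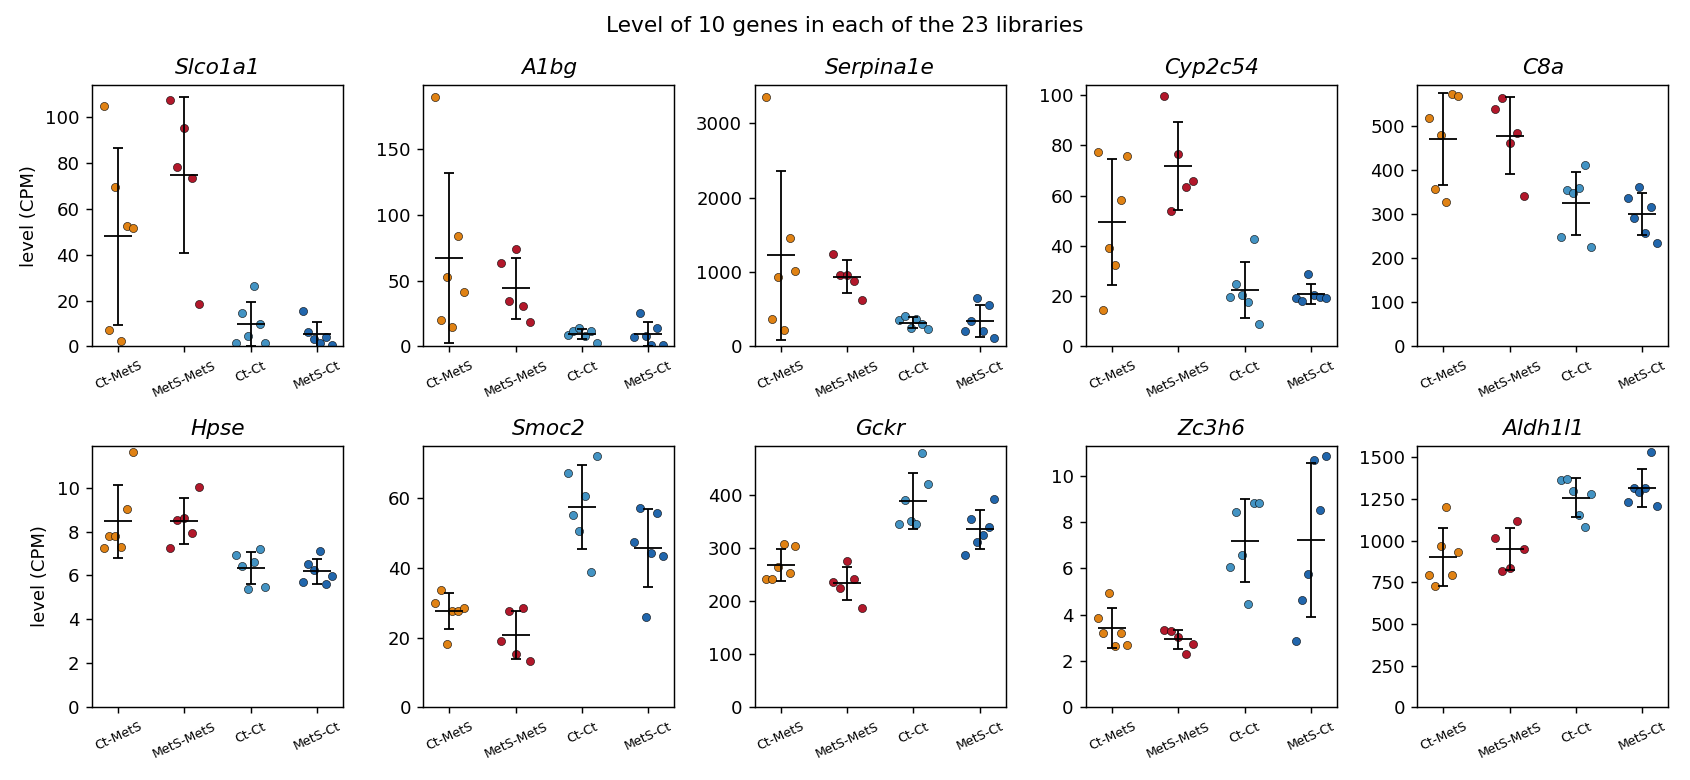
Level in CPM (vertical axis, from 0) of 10 genes in each library (points), by group along the horizontal axis, with the group mean as a bar and the SD as whiskers. Hpse is the gene whose 11 libraries of MetS foster dam pups all lie above the 12 of Ct foster dam pups, and the levels of the other 9 overlap in part.

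In the uptake and conjugation of drugs, bile acids and steroids, the widest differences among the called members of the lists stood in Slco1a1, Ugt2b37, Sult1e1 and Cyp2c54. Slco1a1 had 2.55 to 107 CPM (median 69.4) with a MetS foster dam and 0.645 to 26.2 CPM (median 4.26) with a Ct foster dam. Ct-MetS_50 (2.55 CPM), Ct-MetS_169 (7.21 CPM) and MetS-MetS_39 (18.7 CPM) overlapped the Ct foster dam pups, and the other 8 lay above all of them. Slco1a1 was 8.40-fold higher, a log2 fold change of 3.07 ± 0.61 (SE, edgeR adjusted p = 0.00896), and 3.06 without MetS-MetS_110. The related transporters Slco1a4 and Slco1b2 had log2 fold changes of −0.29 and 0.19 and were not called (edgeR adjusted p = 0.260 and 0.440).

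Among 52 cytochrome P450 genes of drug and steroid metabolism 2 were called higher and 1 lower (5.77%, near the 4.22% of all genes tested, median log2 fold change −0.03). There were 2 calls without MetS-MetS_110, 1 without MetS-MetS_109, MetS-MetS_154 or Ct-Ct_129, and 5 or 6 without Ct-MetS_50, Ct-Ct_33 or MetS-Ct_149. Cyp2c54, a member of the arachidonic acid and drug oxidising Cyp2c cluster, had 14.6 to 99.5 CPM (median 63.6) with a MetS foster dam and 9.12 to 42.8 CPM (median 19.7) with a Ct foster dam. The 5 MetS-MetS pups, at 53.9 CPM or more, all lay above the highest pup of a Ct foster dam, and 3 of the 6 Ct-MetS pups did. The log2 fold change was 1.46 ± 0.24 (SE, edgeR adjusted p = 0.00269). Cyp2c23 had a log2 fold change of 0.72 ± 0.18 (SE, adjusted p = 0.0278 with edgeR), and its call was lost without MetS-MetS_109, Ct-Ct_129 or MetS-MetS_154 (adjusted p of up to 0.0530). The third, Cyp2c70, which makes the muricholic bile acids of mice, was lower, did not meet the rule for shared genes, and kept its call in 13 of 23 fits with 1 library left out. Over the 13 Cyp2c copies tested the log2 fold changes ran from −0.61 to 1.46.

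Ugt2b37 had 0.650 to 24.6 CPM (median 8.27) with a MetS foster dam and 0.111 to 7.23 CPM (median 1.71) with a Ct foster dam, which overlap. The log2 fold change was 2.02 ± 0.50 (SE, edgeR adjusted p = 0.0272), and the call was lost without MetS-MetS_109 or Ct-MetS_145 (adjusted p of up to 0.0537). The other 5 Ugt2b copies tested were not called. Ugt2b37 was the only member called higher of 47 tested genes of phase II conjugation, the step that couples drugs and hormones to sugar, sulfate or glutathione, and 3 were called lower (8.51% of the list, against 4.22% of all genes tested). The count was 2 without MetS-MetS_110, ran from 1 to 7 with 1 library left out and moved by over 1.5 times in 13 of 23 fits. Of the lower genes, Sult1e1, the estrogen sulfotransferase, had 0.0714 to 3.47 CPM with a MetS foster dam and 0.927 to 8.52 CPM with a Ct foster dam, which overlap. Its log2 fold change was −1.79 ± 0.48 (SE, edgeR adjusted p = 0.0397), and 10 of 23 fits with 1 library left out kept the call. Tpmt, the thiopurine methyltransferase, had a log2 fold change of −0.26 and lost its call in 5 of these fits, and the glutathione transferase Gstm7 had one of −0.33 and lost it in 16.

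Abcc10, an efflux pump of the multidrug resistance family named after its values were seen, was lower with a MetS foster dam, at 15.5 to 21.7 CPM against 19.7 to 26.5 CPM with a Ct foster dam. It fell by 0.32 ± 0.06 on the log2 scale (SE, edgeR adjusted p = 0.00774). The major urinary proteins, pheromone carriers secreted by the liver, were tested for 5 copies. Mup22 was called higher with an adjusted p of 0.0434 (edgeR), and Mup20 and Mup3 had log2 fold changes of 1.28 and 1.43 without a call (adjusted p = 0.0658 and 0.162).

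Several of these hepatocyte genes were low in the same pups. Ct-MetS_50 and Ct-MetS_169 had the lowest levels of Slco1a1 and Serpina1e among the 11 pups of MetS foster dams, and Ct-MetS_50 had the lowest level of A1bg, C8a, Ugt2b37 and Pzp as well. Ct-MetS_145 had the highest level of A1bg, Serpina1e and Ugt2b37. Litter and cohort, which the labels do not give per pup, cannot be set beside this pattern.

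Several enzymes that break down amino acids were lower with a MetS foster dam. Of 53 tested genes of amino acid catabolism and the urea cycle 8 were called, all lower (15.1% of the list, against 4.22% of all genes tested), and the list's median log2 fold change was −0.14. The count ran from 3 without MetS-MetS_154 to 15 without Ct-MetS_50, was 4 without MetS-MetS_110 and moved by over 1.5 times in 16 of 23 such fits, and 2 of the 8 met the rule for shared genes. Kynu, the kynureninase of tryptophan breakdown, was one of these, with 102 to 214 CPM (median 124) with a MetS foster dam and 152 to 295 CPM (median 177) with a Ct foster dam. It fell by 0.53 ± 0.12 on the log2 scale (SE, edgeR adjusted p = 0.0175), and 9 of 11 pups lay below the whole range of the Ct foster dam pups. The other was Hal, the histidase that opens histidine breakdown, with a log2 fold change of −0.53 ± 0.13 (SE, edgeR adjusted p = 0.0245), and its call was lost without MetS-MetS_154.

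Other steps of these routes were called without meeting that rule. Haao, which acts after Kynu towards NAD, had a log2 fold change of −0.35, and Ido2, an enzyme of the first step of tryptophan breakdown named after its values were seen, had one of −0.49. Both lost their calls in several fits with 1 library left out, kept in 11 and 13 of 23, with an adjusted p of up to 0.0720 and 0.0730 (edgeR). Prodh, the proline dehydrogenase of mitochondria, fell by 1.09 ± 0.21 in pups of Ct birth dams, whereas its log2 fold change in pups of MetS birth dams was −0.39 ± 0.22 (SE). The difference between both states had an unadjusted p of 0.0291 and an adjusted p of 0.892 with edgeR.

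Of 37 one-carbon and methionine genes 1 was called (2.7%, against 4.22% of all genes tested). The called gene was Aldh1l1, the folate enzyme that oxidises 10-formyltetrahydrofolate and so drains the one-carbon pool. Aldh1l1 had 730 to 1203 CPM (median 930) with a MetS foster dam and 1082 to 1530 CPM (median 1294) with a Ct foster dam. Its log2 fold change was −0.47 ± 0.08 (SE, edgeR adjusted p = 0.00311), with −0.48 in pups of Ct birth dams and −0.47 in pups of MetS birth dams. The 11 pups of MetS foster dams all lay below the mean of the others, and 9 lay below their whole range.

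In carbohydrate metabolism 5 of 41 genes were called lower and 1 higher (14.6% of the list, against 4.22% of all genes tested), and 6 or 7 were called when 1 library was left out. Gckr, the protein that holds glucokinase in the nucleus, was the one shared member. It had 188 to 307 CPM (median 242) with a MetS foster dam and 288 to 479 CPM (median 349) with a Ct foster dam, and was called in both pairs, with a log2 fold change of −0.54 ± 0.11 in pups of Ct birth dams (SE, edgeR adjusted p = 0.0193) and −0.52 ± 0.11 in pups of MetS birth dams (adjusted p = 0.0431). Among the other members, the fructose enzymes Khk and Tkfc and the glycogen phosphorylase Pygl were called lower, and the lactate dehydrogenase chain Ldha higher, without meeting the rule for shared genes.

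A few genes of pyruvate metabolism were named after their values were seen, and they are not a list. Pdhb, the E1 beta chain of pyruvate dehydrogenase, averaged 125 ± 23.6 CPM in Ct-MetS and 215 ± 24.2 CPM in Ct-Ct (SD, n = 6 each), and 144 ± 20.1 CPM in MetS-MetS (SD, n = 5) and 156.5 ± 15.2 CPM in MetS-Ct (SD, n = 6). Its log2 fold change was −0.79 ± 0.11 in pups of Ct birth dams and −0.12 ± 0.12 in pups of MetS birth dams (SE, edgeR adjusted p = 0.00350 and 0.684). The difference between both states had an unadjusted p of 0.000483 and an adjusted p of 0.699. Pdha1, the E1 alpha chain, had a log2 fold change of −0.40 in pups of Ct birth dams and −0.12 in pups of MetS birth dams. Pkm, a pyruvate kinase, had 0.73 in pups of Ct birth dams and 0.17 in pups of MetS birth dams. In MetS-MetS_110, the library with muscle transcripts, Pkm was at 55.7 CPM. It had 29.7 to 39.3 CPM in the other MetS-MetS pups and 32.1 to 37.3 CPM in the MetS-Ct pups. The part of the muscle transcripts in the 0.17 was not tested. No difference between prenatal states passed the adjustment over all genes with edgeR.

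Sfxn5 and Slc25a28 were the 2 called members of 41 mitochondrial carriers (4.88%, near the background), and both were lower and shared. The count was 1 without MetS-MetS_110, ran from 1 to 4 with 1 library left out and moved by over 1.5 times in 14 of 23 fits. Sfxn5, a sideroflexin of the inner membrane, had 24.2 to 38.7 CPM (median 30.6) with a MetS foster dam and 36.0 to 54.0 CPM (median 46.4) with a Ct foster dam. Only 1 MetS foster dam pup reached the range of the others, and the log2 fold change was −0.53 ± 0.08 (SE, edgeR adjusted p = 0.000566). Slc25a28, an iron carrier of the same membrane, had 14.4 to 18.9 CPM (median 16.4) with a MetS foster dam and 17.0 to 22.1 CPM (median 19.0) with a Ct foster dam, and 7 of 11 pups lay below every pup of a Ct foster dam. It had a log2 fold change of −0.22 ± 0.06 (SE, edgeR adjusted p = 0.0341), and its call was kept in 10 of 23 fits with 1 library left out, with an adjusted p of up to 0.0709 (without MetS-MetS_110). Of 73 respiratory chain and ATP synthase genes 1 was called (1.37%, against 4.22% of all genes tested), the complex I subunit Ndufa6. Its log2 fold change was −0.29 (edgeR adjusted p = 0.0267, and 0.0546 without MetS-MetS_154, where the call was lost).

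Several innate immune receptors and lysosomal enzymes were higher with a MetS foster dam, along with markers of Kupffer cells. Of 47 tested Kupffer cell and macrophage markers 17 were called, all higher (36.2% of the list, against 4.22% of all genes tested), 18 without MetS-MetS_110, and 14 to 20 with any 1 library left out. Of the 17, 9 met the rule for shared genes. The list's median log2 fold change was 0.44 in pups of Ct birth dams and 0.15 in pups of MetS birth dams. The summed level of these markers was 1653 to 2203 CPM (median 2016) with a MetS foster dam and 1200 to 1737 CPM (median 1645) with a Ct foster dam. Of the defining markers, Adgre1 and Clec4f were called higher, Vsig4 and Timd4 were not, and none was at 0 in any library. The part of these markers in the results of the next paragraphs was not tested, and in bulk liver more cells of a type and more RNA per cell cannot be told apart. Lymphocyte markers had 0 of 25 members called with edgeR, DESeq2 or limma-voom. An unadjusted p under 0.05 was reached by 5 of them (edgeR), against 21.2% of all genes tested. Endothelial and stellate cell markers had 1 of 32 (3.12%) and 1 of 26 (3.85%) called, and without MetS-MetS_110 the endothelial count was 0. The endothelial list leaned higher, with 24 of 32 log2 fold changes positive (48.0% over all genes tested). Of the 24, 18 were positive in both pairs, and the list's median was 0.17. Of its members 11 had an unadjusted p under 0.05 (edgeR), and of the stellate list 7, against 21.2% of all genes tested.

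Of 58 genes of inflammatory signalling 7 were called (12.1%, against 4.22% of all genes tested), all higher and 4 of them shared, with a median log2 fold change of 0.11 over the list. The count was 5 without MetS-MetS_110 and ran from 4, without Ct-MetS_169, to 9 with 1 library left out. Tlr8, an endosomal Toll-like receptor, had 1.86 to 4.48 CPM (median 2.54) with a MetS foster dam and 0.945 to 2.36 CPM (median 1.55) with a Ct foster dam. Its log2 fold change was 0.79 ± 0.17 (SE, edgeR adjusted p = 0.0116). Pycard, the adaptor that joins inflammasome sensors to caspase-1, had 1.27 to 3.22 CPM with a MetS foster dam and 0.810 to 1.59 CPM with a Ct foster dam, a log2 fold change of 0.74 ± 0.16 (SE, edgeR adjusted p = 0.0119). Tlr7, a close relative of Tlr8, was called with an adjusted p of 0.0328 and kept its call in 14 of 23 fits with 1 library left out. Il10rb, a chain of the interleukin 10 receptor, lost its call without MetS-MetS_110, Ct-Ct_129, Ct-MetS_145 or MetS-MetS_154.

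Sirpa, the receptor through which macrophages read the CD47 signal of other cells, had 47.1 to 78.2 CPM (median 60.5) with a MetS foster dam and 37.6 to 54.5 CPM (median 45.4) with a Ct foster dam. Of the 11 pups 10 lay above the whole range of the Ct foster dam pups, and the log2 fold change was 0.40 ± 0.07 (SE, edgeR adjusted p = 0.00320). Ifngr1, Ifngr2, Jak3 and Clec4a3 were named after their values were seen. Ifngr1 and Ifngr2, the chains of the interferon gamma receptor, rose by 0.27 ± 0.06 and 0.39 ± 0.09, and Jak3, a kinase of common gamma chain receptors, by 0.29 ± 0.06 (log2, SE, edgeR adjusted p = 0.0182, 0.0201 and 0.0108). Clec4a3, a lectin receptor of myeloid cells, rose by 0.58 ± 0.11 (SE, edgeR adjusted p = 0.00784). The interferon response itself had 1 of 51 genes called (1.96%, against 4.22% of all genes tested), Ifi27l2a, whose call was lost without Ct-MetS_145 or Ct-MetS_169. The interferon list leaned higher all the same, with 44 of 51 log2 fold changes positive (48.0% over all genes tested). Of the 44, 37 were positive in both pairs, and the list's median was 0.20. Of its members 16 had an unadjusted p under 0.05 (edgeR), against 21.2% of all genes tested.

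In the other direction, Il22ra1, the receptor chain through which hepatocytes answer interleukin 22, was lower with a MetS foster dam. It had 2.13 to 5.82 CPM (median 4.36) with a MetS foster dam and 4.35 to 15.1 CPM (median 7.07) with a Ct foster dam. The groups overlapped, and the log2 fold change was −0.92 ± 0.17 (SE, edgeR adjusted p = 0.00601). Nkiras1, a Ras-like protein that binds the inhibitors of NF-kappa-B, fell by 0.35 ± 0.07 (SE, edgeR adjusted p = 0.00540), with 17.0 to 22.9 CPM with a MetS foster dam against 19.2 to 29.4 CPM with a Ct foster dam.

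Lysosomal genes had 6 of 75 members called (8.0%, against 4.22% of all genes tested), all higher and 3 of them shared. There were 5 calls without MetS-MetS_110 and from 4 to 12 when any 1 library was left out, with the 12 without Ct-MetS_50. Of the list, 59 of 75 had a positive log2 fold change against 48.0% of all genes tested. Hexa, a chain of beta-hexosaminidase, had 45.8 to 75.3 CPM (median 56.9) with a MetS foster dam and 40.1 to 52.1 CPM (median 44.5) with a Ct foster dam, a log2 fold change of 0.36 ± 0.07 (SE, edgeR adjusted p = 0.00506). The carboxypeptidase Ctsa and the cysteine protease Ctsb rose by 0.33 ± 0.08 and 0.25 ± 0.06 (log2, SE, edgeR adjusted p = 0.0194 and 0.0231). Acp5, the tartrate-resistant acid phosphatase of macrophages and osteoclasts, rose by 0.42 ± 0.08 (SE, edgeR adjusted p = 0.00801, named after its values were seen). The summed level of the lysosomal list overlapped widely, at 7685 to 10006 CPM with a MetS foster dam and 7754 to 9551 CPM with a Ct foster dam.

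**Figure D3:**
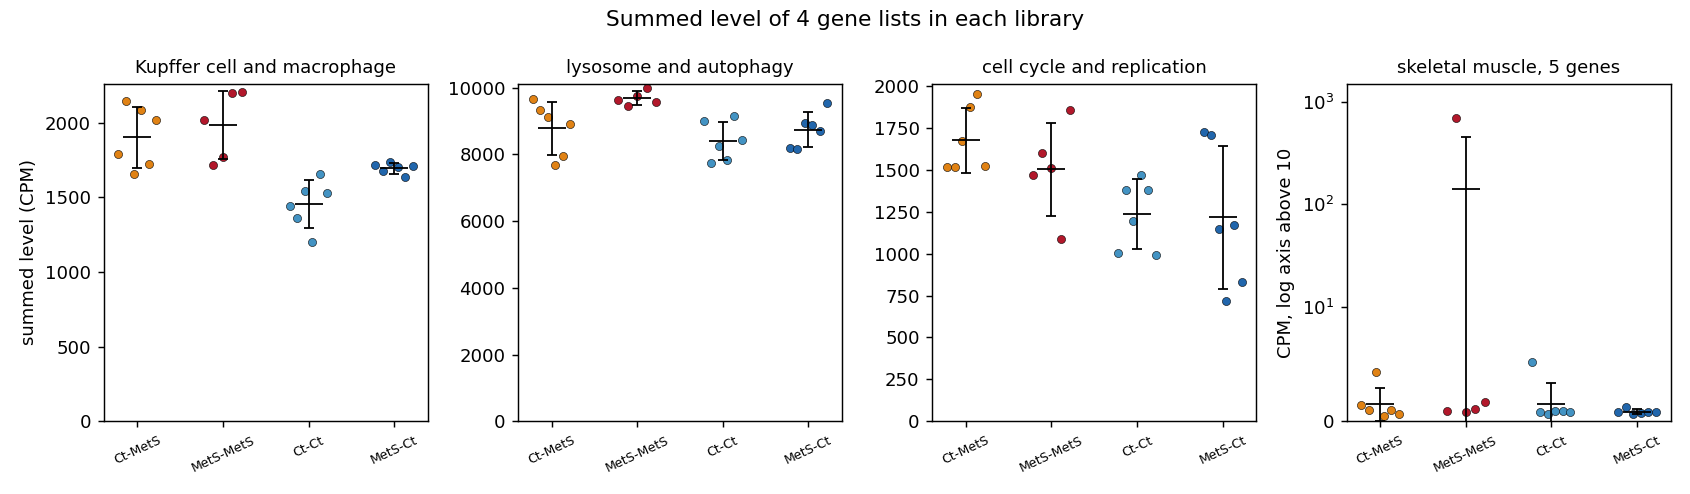
Summed level in CPM of 4 gene lists in each library (points), with group mean and SD; the skeletal muscle panel has a log axis above 10. Kupffer cell and macrophage markers reach 2203 CPM with a MetS foster dam and 1737 CPM with a Ct foster dam, and MetS-MetS_110 alone carries muscle transcripts, at 700.4 CPM.

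Hpse and Gpc1 were higher with a MetS foster dam, and the matrix gene Smoc2 was lower. Hpse, the heparanase that cuts heparan sulfate chains, was the 1 gene off the lists set aside whose libraries did not overlap, with 7.25 to 11.6 CPM in the 11 pups of MetS foster dams (median 7.93) and 5.40 to 7.20 CPM in the 12 pups of Ct foster dams (median 6.33). It was named after this was seen, and 7 of 14466 genes (0.0484%) had no overlap. Its log2 fold change was 0.43 ± 0.09 (SE, edgeR adjusted p = 0.00774). Gpc1, a glypican that carries heparan sulfate on the cell surface, had 2.37 to 7.11 CPM (median 3.14) with a MetS foster dam and 1.08 to 2.54 CPM (median 1.52) with a Ct foster dam. It was called in both pairs, with log2 fold changes of 1.10 ± 0.23 in pups of Ct birth dams and 1.07 ± 0.24 in pups of MetS birth dams (SE, edgeR adjusted p = 0.0242 and 0.0473). The highest value was that of MetS-MetS_110, and without it the adjusted p was 0.000728. Ndst2, an enzyme that sulfates heparan sulfate, had 23.7 to 29.0 CPM (median 27.4) with a MetS foster dam and 26.7 to 37.9 CPM (median 29.8) with a Ct foster dam. It was not called, with a log2 fold change of −0.19 ± 0.06 (SE, edgeR adjusted p = 0.0632).

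Smoc2, a secreted matrix protein of the SPARC family, was lower, with 13.4 to 33.7 CPM (median 27.6) with a MetS foster dam and 25.9 to 72.2 CPM (median 53) with a Ct foster dam. It was called in both pairs, with a log2 fold change of −1.06 ± 0.20 in pups of Ct birth dams (SE, edgeR adjusted p = 0.0187) and −1.15 ± 0.22 in pups of MetS birth dams (adjusted p = 0.0293). Of 81 matrix genes 2 were called higher and 2 lower (4.94%, near the background), with 8 calls without Ct-Ct_130 and 7 without Ct-MetS_50. Beside Gpc1 and Smoc2 these were Pcolce, which helps trim procollagen and was higher, and the collagen chain Col5a3, which was lower. Neither met the rule for shared genes.

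Of the iron and metal genes 1 was called higher and 1 lower of 33 (6.06%), and 1 was called without MetS-MetS_110, MetS-MetS_154, Ct-MetS_145 or Ct-Ct_129. Hamp2 had 0.183 to 5.97 CPM (median 0.664) with a MetS foster dam and 1.88 to 91.9 CPM (median 16.8) with a Ct foster dam. In 7 of 11 pups the level lay below that of every pup of a Ct foster dam, and the log2 fold change was −3.62 ± 0.67 (SE, edgeR adjusted p = 0.00645), with −2.40 in pups of Ct birth dams and −4.84 in pups of MetS birth dams. Its near-identical copy Hamp, hepcidin itself, had a log2 fold change of −2.54 ± 0.84 and was not called (SE, edgeR adjusted p = 0.0859). Its levels were at most 4.04 CPM with a MetS foster dam and 12.4 CPM with a Ct foster dam. Steap4, a metalloreductase, was higher without meeting the rule for shared genes and lost its call in 4 of 23 fits with 1 library left out.

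Chrna4 had 1.93 to 21.6 CPM (median 9.75) with a MetS foster dam and 0.0370 to 190 CPM (median 32.0) with a Ct foster dam, so that the Ct foster dam pups spanned the whole range of the others. The log2 fold change was −2.81 ± 0.74 (SE, edgeR adjusted p = 0.0369), and 9 of 23 fits with 1 library left out kept the call, with an adjusted p of up to 0.0693. MetS-Ct_70 had the lowest value of all 23.

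Cell cycle genes leaned higher as a list. Of 78 genes tested 69 had a positive log2 fold change (48.0% over all genes tested), 60 of them in both pairs. The list's median was 0.44 against −0.01 over all genes tested. With edgeR 8 were called (10.3%, against 4.22% of all genes tested), all higher, and 3 of the 8 met the rule for shared genes. An unadjusted p under 0.05 was reached by 38 (edgeR), against 21.2% of all genes tested, while DESeq2 and limma-voom called 20 each. The count was 0 without any 1 of MetS-MetS_110, Ct-Ct_129, MetS-MetS_154, Ct-MetS_24 and Ct-Ct_4, and 17 without MetS-Ct_120 or MetS-Ct_149. Ccnb2, a cyclin that drives entry into mitosis, had 11.6 to 33.3 CPM (median 23.1) with a MetS foster dam and 3.59 to 19.4 CPM (median 10.5) with a Ct foster dam, a log2 fold change of 1.02 ± 0.26 (SE, edgeR adjusted p = 0.0304). It was called in 18 of 23 fits, and the 5 exceptions were those that left the list with no call.

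Wee1 and Psrc1, named after their values were seen, kept their calls in each of the 23 fits. Wee1, the kinase that holds back mitotic entry, had 7.23 to 30.0 CPM (median 13.8) with a MetS foster dam and 6.20 to 18.9 CPM (median 8.21) with a Ct foster dam, a log2 fold change of 0.79 ± 0.19 (SE, edgeR adjusted p = 0.0204). Psrc1, a spindle protein, had 1.33 to 2.71 CPM with a MetS foster dam and 0.0740 to 1.95 CPM with a Ct foster dam, a log2 fold change of 1.23 ± 0.29 (SE, edgeR adjusted p = 0.0192). The summed level of the cell cycle list was 1087 to 1952 CPM (median 1520) with a MetS foster dam and 717 to 1727 CPM (median 1184) with a Ct foster dam, which overlap. Wee1 did not follow this sum in every pup. It was highest in MetS-MetS_109, MetS-MetS_110 and MetS-MetS_157 (30.0, 28.6 and 24.2 CPM), the pups highest in Dbp, a clock output factor described below. MetS-MetS_157 had the lowest sum of the MetS foster dam pups. MetS-Ct_120, with the highest sum of the Ct foster dam pups, had 18.9 CPM of Wee1. The part of time of day in the Wee1 values was not tested. Erythroid genes, expressed by dividing precursors among others, had 15 of 44 members called (34.1%, against 4.22% of all genes tested). All 15 were higher, and 13 were called without MetS-MetS_110. Their summed level was 1101 to 1846 CPM with a MetS foster dam and 1064 to 1852 CPM with a Ct foster dam, and their part in the cell cycle values was not tested.

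Zc3h6, Iws1, Snapc3 and Elp2 were among the lower shared genes. Zc3h6, a zinc finger protein of the CCCH type, had 2.30 to 4.93 CPM (median 3.20) with a MetS foster dam and 2.86 to 10.9 CPM (median 7.51) with a Ct foster dam. It was called in both pairs, with log2 fold changes of −1.07 ± 0.26 in pups of Ct birth dams and −1.30 ± 0.28 in pups of MetS birth dams (SE, edgeR adjusted p = 0.0419 and 0.0466). Iws1, which travels with RNA polymerase II during elongation, fell by 0.36 ± 0.06, and Snapc3, a subunit of the complex that starts small nuclear RNA genes, by 0.37 ± 0.06 (log2, SE, edgeR adjusted p = 0.00147 and 0.00200). Elp2, a scaffold of the Elongator complex that modifies transfer RNA, had 32.6 to 39.1 CPM with a MetS foster dam and 38.9 to 46.1 CPM with a Ct foster dam. Only 1 pup of a MetS foster dam reached the range of the others, although the log2 fold change was only −0.25 ± 0.04 (SE, edgeR adjusted p = 0.00320).

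Lars, the cytosolic leucyl-tRNA synthetase, fell by 0.26 ± 0.05 (log2, SE, edgeR adjusted p = 0.00468). It was the 1 called member of 36 genes of the ATF4 response and the synthetases (2.78%, against 4.22% of all genes tested). The long nuclear RNA Malat1, named after its values were seen, had 485 to 1083 CPM (median 755) with a MetS foster dam and 730 to 1455 CPM (median 1051) with a Ct foster dam, a log2 fold change of −0.47 ± 0.11 (SE, edgeR adjusted p = 0.0165).

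The other shared genes with the smallest p-values carried a range of functions. Higher with a MetS foster dam were Nt5dc2, a member of the nucleotidase family (0.64 ± 0.10), Stom, the membrane scaffold stomatin (0.39 ± 0.07), Tmem86a, a lysoplasmalogen hydrolase (0.77 ± 0.14), and Plxnc1, a semaphorin receptor (0.42 ± 0.08), all as log2 fold changes with SE and with edgeR adjusted p of 0.00110, 0.00245, 0.00381 and 0.00429. Stom is abundant in red cells, Tmem86a in lipid-handling macrophages, and the share of those cells in their values was not tested. Unc119, a carrier of lipid-modified proteins, Cd24a, a surface glycoprotein of progenitor and immature cells, and Mmd, a membrane protein first found in maturing macrophages, rose by 0.61 ± 0.11, 0.70 ± 0.13 and 0.58 ± 0.11 (edgeR adjusted p = 0.00320, 0.00601 and 0.00755). Creb3l3, a liver transcription factor held in the endoplasmic reticulum, rose by 0.43 ± 0.10 (SE, edgeR adjusted p = 0.0162, named after its values were seen). Lower were Ppp3cc, a catalytic chain of calcineurin (−0.54 ± 0.09, edgeR adjusted p = 0.00242), Gca, the calcium-binding grancalcin (−0.48 ± 0.09, adjusted p = 0.00645), and Rnd2, a small GTPase of the cytoskeleton (−0.96 ± 0.18, adjusted p = 0.00666).

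Further shared genes with the smallest p-values were Kctd12, an auxiliary subunit of GABA-B receptors (log2 fold change 0.39 ± 0.07, edgeR adjusted p = 0.00269), Cmtm3, a chemokine-like membrane protein (0.37 ± 0.07, adjusted p = 0.00683), and Plpp2, a lipid phosphate phosphatase (0.44 ± 0.09, adjusted p = 0.00712), all higher with a MetS foster dam. Cmtm3 had 11.9 to 16.3 CPM with a MetS foster dam and 9.13 to 13.1 CPM with a Ct foster dam, and 10 of 11 pups lay above the whole range of the others. Frg2f1 was lower, with 6.23 to 8.15 CPM with a MetS foster dam and 7.89 to 13.1 CPM with a Ct foster dam, and only 1 pup reached the range of the others (log2 fold change −0.44 ± 0.08, edgeR adjusted p = 0.00601). Dhrs4, a retinal reductase, rose by 0.33 ± 0.07, and Bex4 fell by 0.58 ± 0.13 (log2, SE, edgeR adjusted p = 0.0116 and 0.0156).

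Genes named after their values were seen outside the lists included receptors, enzymes and channels. Fcgrt, the neonatal Fc receptor that binds immunoglobulin G and albumin, had 135 to 226 CPM with a MetS foster dam and 127 to 178 CPM with a Ct foster dam, a log2 fold change of 0.34 ± 0.07 (SE, edgeR adjusted p = 0.00970). Qpct, the glutaminyl cyclase of secreted peptides, had 19.8 to 44.6 CPM with a MetS foster dam and 18.7 to 31.4 CPM with a Ct foster dam, a log2 fold change of 0.53 ± 0.11 (SE, edgeR adjusted p = 0.0104). In 9 of 11 pups Qpct lay above every pup of a Ct foster dam. Sun2, which ties the nucleus to the cytoskeleton, and Trpm4, a calcium-activated cation channel, rose by 0.60 ± 0.12 and 0.61 ± 0.14 (log2, SE, edgeR adjusted p = 0.0104 and 0.0170).

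Members of other lists were called too. Genes of apoptosis, p53 and DNA damage had 2 of 52 called (3.85%, near the background), both higher. Antigen presentation had 1 of 25 (4.0%, near the background), also higher. Nervous system and neuroendocrine receptors had 1 higher and 1 lower of 44 (4.55%, near the background), and 0 calls without MetS-MetS_110. Genes of bile acid synthesis and transport had 1 higher and 1 lower of 32 (6.25%). Casp8, the initiator caspase of death receptors, H2-T23, a non-classical class I antigen, and P2ry1, a receptor of ADP, were higher and shared, with log2 fold changes of 0.30 ± 0.08, 0.34 ± 0.09 and 0.56 ± 0.15 (SE, edgeR adjusted p = 0.0272, 0.0273 and 0.0339). They kept their calls in 22, 20 and 15 of 23 fits with 1 library left out. Slc51b, a chain of the bile acid exporter of the basolateral membrane, was lower and not shared. It had a log2 fold change of −1.39 ± 0.28 in pups of MetS birth dams (SE, edgeR adjusted p = 0.0367) and −0.41 ± 0.25 in pups of Ct birth dams (adjusted p = 0.504), and the difference between both states had an unadjusted p of 0.0166 and an adjusted p of 0.892.

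**Figure D4:**
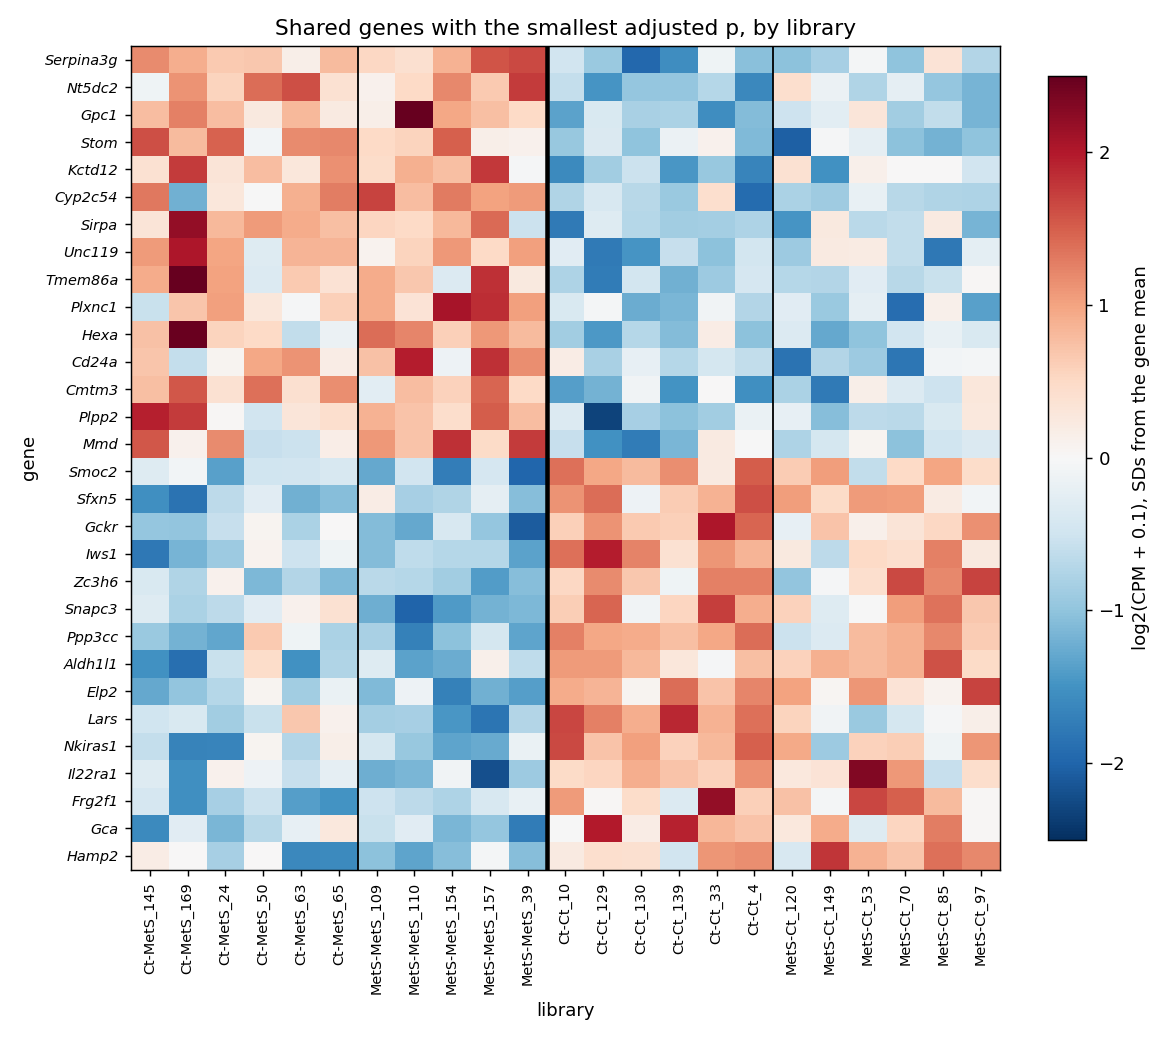
Level of the 15 higher and 15 lower shared genes with the smallest p (rows, mean count of at least 50) in the 23 libraries (columns), as log2(CPM + 0.1) in SDs from the gene's mean. The 11 libraries of MetS foster dam pups are left of the thick line and the 12 of Ct foster dam pups right of it, and in each row most cells of the 2 sides differ in colour while single libraries, such as Ct-MetS_169 for Cyp2c54, cross over.

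Antioxidant genes had 4 of 37 members called higher and 1 lower (13.5% of the list, against 4.22% of all genes tested), and 3 of these were shared. With 1 library left out there were 3 to 6 calls, with 3 without MetS-MetS_110 and without each of 9 other libraries. Msrb1, a selenoprotein that repairs oxidised methionine, and Prdx2, a peroxiredoxin abundant in red cells, rose by 0.43 ± 0.10 and 0.20 ± 0.05 (log2, SE, edgeR adjusted p = 0.0159 and 0.0233). Glrx2, the mitochondrial glutaredoxin, fell by 0.22 ± 0.05 (SE, edgeR adjusted p = 0.0197). Insulin, IGF and growth hormone genes had 3 of 37 called (8.11%), all higher (Mtor, Igfals and Eif4ebp1), and 2 of the 3 were shared. There were 0 calls without MetS-MetS_110 and without each of 10 other libraries. Igfals, the plasma carrier subunit of IGF complexes, had 52.7 to 172 CPM with a MetS foster dam and 74.3 to 116 CPM with a Ct foster dam, and was called in 5 of 23 fits.

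Of the 42 function lists 9 had no called member with edgeR. Over all genes tested, 21.2% had an unadjusted p under 0.05 (edgeR), beside which the counts below stand. Glycosylation enzymes had 0 of 73 called (11 at an unadjusted p under 0.05, 2 called by DESeq2 and 0 by limma-voom). Genes of TGF-beta, BMP, Wnt, Notch and Hippo signalling had 0 of 73 (8, 0 and 0 by the same counts), proteasome genes 0 of 38 (7, 0 and 0), cytosolic chaperones 0 of 30 (7, 2 and 0), and ribosome biogenesis 0 of 36 (4, 1 and 0). Epigenetic and imprint maintenance factors had 0 of 58 (4, 2 and 0), cytosolic ribosome proteins 0 of 75 (3, 1 and 0), immediate early genes 0 of 20 (3, 2 and 0) and the circadian clock 0 of 23 (1, 0 and 0). The immediate early list leaned higher without a call, with 18 of 20 log2 fold changes positive (48.0% over all genes tested). Of the 18, 11 were positive in both pairs, and the list's median was 0.24. The clock output factor Dbp, which swings with time of day, had 2.33 to 267 CPM with a MetS foster dam and 3.27 to 89.3 CPM with a Ct foster dam, and was not called (log2 fold change 1.23 ± 0.58, SE, edgeR adjusted p = 0.227). The hour at which each liver was taken was not used here.

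**Figure D5:**
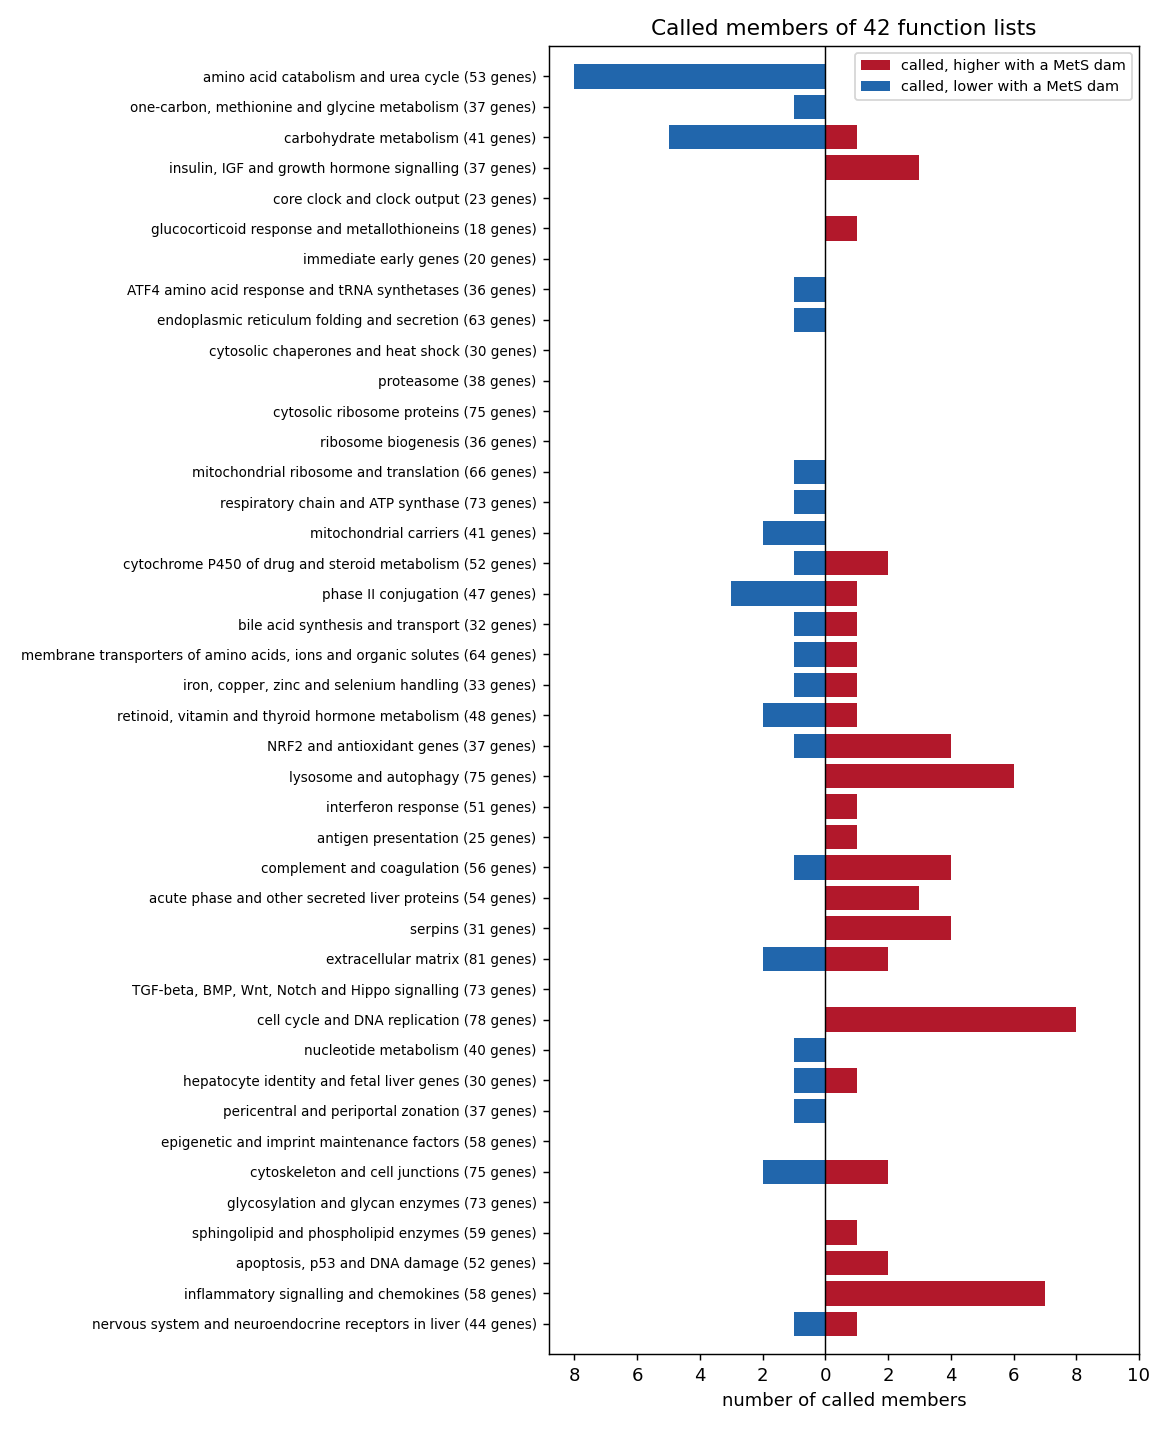
Number of called members (horizontal axis) of the 42 function lists, to the right for genes higher and to the left for genes lower with a MetS foster dam, with the number of genes tested in brackets. Amino acid catabolism has the most calls to the left (8) and cell cycle the most to the right (8).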

How the data were processed

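Polyadenylated RNA was sequenced from 23 livers, 1 library each, with a directional kit per the labels' protocols. The authors deposited 1 table of whole-number counts for 49585 Ensembl genes. It is named as normalised but was read as raw counts, since its library totals differ and every library holds each whole number from 1 to 100. FastQC, STAR, HTSeq and DESeq2 are the tools named in the submitters' processing notes. The sources used here give no build, annotation, strand setting or treatment of multiply mapped reads. Symbols matched 49326 genes.

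Genes with a mean count of at least 10 were tested with edgeR 4.0.16 in R 4.3.3 (TMM scaling, 4 group means, robust quasi-likelihood fit). The foster dam effect was the mean of Ct-MetS and MetS-MetS minus the mean of Ct-Ct and MetS-Ct, with Benjamini-Hochberg adjustment over all genes tested and a threshold of 0.05. An SE is the log2 fold change over the square root of F. Alternatives were DESeq2 1.42.0, limma-voom (limma 3.58.1), DESeq2 size factors, other count minimums, thinned counts, the compared libraries alone, an additive model and leaving out each library. The fit was tested on simulated data. CPM values use effective library sizes.

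The members and lists were chosen with earlier results of these data known. Named were the 15 higher and 15 lower shared genes with the smallest p and a mean count of at least 50 off the 5 lists set aside, up to 4 called members of each of 42 function lists (6 where more than 4 were called), and 1 member of lists with none. Genes outside this rule are marked in the text or belong to the copies and markers listed beside a named gene. Promoters came from RefSeq (GRCm38.p6).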

Additional observations from a re-analysis of the deposited data

Results flagged for a closer look

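Over 160 groups of values tested, 8 held a pup whose level lay far from the others of its group. Chance flags about 1 in 20 groups, which is also the share flagged here. Ct-MetS_24 had 18.2 CPM of Smoc2, against 27.5 to 33.7 CPM in the other Ct-MetS pups, and MetS-Ct_53 had 25.9 CPM against 43.5 to 57.4 CPM in its group. MetS-Ct_53 also had 28.7 CPM of Cyp2c54, against 18.0 to 20.5 CPM. MetS-MetS_157 had 3.94 CPM of Hamp2, against 0.371 to 0.664 CPM in the other MetS-MetS pups. MetS-Ct_85 had 1530 CPM of Aldh1l1, against 1209 to 1315 CPM, and Ct-Ct_10 had 37.6 CPM of Sirpa, against 44.4 to 49.0 CPM. The summed level of hepatocyte markers was 181834 CPM in MetS-MetS_39, against 192609 to 194976 CPM in its group. That of pancreas, gut, muscle and adipose markers was 732 CPM in MetS-MetS_110, against 26.7 to 56.2 CPM.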

How the results depend on the processing

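The 611 calls of the foster dam effect became 367 with no filter on low counts and 1038 with DESeq2, and ranged from 349 to 923 with 1 library left out. The 138 calls in pups of Ct birth dams became 425 with DESeq2 and 45 with only the compared libraries, and ranged from 12 to 246. The 60 calls in pups of MetS birth dams became 20 with no filter, 30 at a mean count of at least 50, 136 with DESeq2, 16 with limma-voom, 35 with thinned counts and 25 with only the compared libraries, and ranged from 5 to 151. The interaction had 0 calls and 4 with DESeq2. The 391 shared genes ranged from 244 to 564 with 1 library left out and stayed within 1.5 times under the other alternatives. No named gene changed sign in any alternative run. The cause of these shifts was not tested. No paired analysis was possible because the animal numbers in the labels differ between all 23 pups. The smallest library, with 16876460 counts, limits the genes with few counts most.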
